A study of Sus scrofa with 16 samples.

Results

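The genes described here are extracellular matrix and transporter genes that mark fibroblasts of the meninges and of the perivascular space: the collagen genes COL1A1, COL1A2, COL3A1 and COL6A3, the small leucine-rich proteoglycan genes DCN, LUM and OGN, and FN1, SLC6A13 and IGF2. They were taken as a list of 10 names and looked up by symbol among the pig Ensembl gene IDs of the deposited expression table. The lookup used no expression values, but the list was chosen with earlier results of these data known. Of the 10, 7 were found: COL1A2 (ENSSSCG00000015326), COL3A1 (ENSSSCG00000016034), COL6A3 (ENSSSCG00000027331), DCN (ENSSSCG00000000915), LUM (ENSSSCG00000000916), FN1 (ENSSSCG00000016174) and SLC6A13 (ENSSSCG00000030076). No ID was paired with COL1A1, OGN or IGF2, which were not analysed here. The table holds 22815 distinct entries, of which 13590 had a mean of at least 0.5 FPKM (fragments per transcript length and sequencing depth) over all pigs and were tested. COL6A3 fell under that minimum, so 6 of the 13590 tested entries are genes of this list.

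The samples were the left hippocampi of 16 preterm pigs, 5 without necrotizing enterocolitis (No NEC, 2 female and 3 male), 5 with severe lesions of the colon only (Co-NEC, 2 female and 3 male) and 6 with severe lesions of the small intestine, with or without the colon (Si-NEC, 3 female and 3 male). Necrotizing enterocolitis is an acute inflammatory disease of the immature gut. All pigs shared preterm delivery by cesarean section, tube feeding with human donor milk, parenteral nutrition and an end point within 8 days. The paper states that the type of donor milk differed between pigs and that the piglets came from several sows. Milk type and litter are not known here for the 16 pigs and are in none of the tests, which treat the pigs as independent. The lesions arose spontaneously and were graded by eye at autopsy, so the pigs were sorted by outcome and not assigned to groups. Each library was made from a whole hippocampus of 1 pig, so fewer cells of a type and less RNA per cell cannot be told apart.

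In the brain, fibrillar collagens are made mainly by fibroblasts of the leptomeninges and by fibroblasts that line the larger vessels outside the mural cell layer. These cells secrete type I, III and VI collagens, bind them with the proteoglycans decorin and lumican, and carry transporters of the barrier between the cerebrospinal fluid and the tissue. The hippocampus itself borders on pia mater and choroid plexus and is entered by pial vessels, so a dissected hippocampus always carries some of these cells.

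The tissue of all 16 pigs held neuron transcripts. All 8 hippocampal neuron markers found were tested, and their summed level lay between 948 and 1239 FPKM in the 16 pigs. SLC17A7, the vesicular glutamate transporter of excitatory neurons, was the largest part of that sum, between 490.3 and 678.8 FPKM. PROX1 and ZBTB20 of the same list were small parts, between 4.92 and 10.3 and between 2.56 and 7.08 FPKM. Against the neuron sum, the summed level of the 7 fibroblast genes lay between 29.0 and 106.1 FPKM with a median of 50.3. The FPKM values of a pig summed to 544629 to 864931, and the factors that would equalise the pigs by the median of ratios lay between 0.9445 and 1.0923. The table holds no read counts. Of the values above 0 and under 0.1 FPKM, at most 10.7% shared one ratio with a reference pig within bins of 1%, so depth could not be recovered and is unknown. No NEC pig 230-15 stood apart over the whole table, with the highest value of the 16 pigs in 26.3% of the tested entries and the lowest in 19.9%, and Si-NEC pig 223-15 held the highest value in 17.5%.

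The order of the levels, on the FPKM scale, which is per transcript length, was FN1 with a mean of 13.6 ± 6.59 (SD, n = 16), COL1A2 12.9 ± 3.69, DCN 11.8 ± 4.57, COL3A1 7.48 ± 2.98, LUM 3.01 ± 1.02, SLC6A13 2.50 ± 0.858 and COL6A3 0.406 ± 0.119. The first 3 did not separate. FN1 was above COL1A2 in 9 of 16 pigs, and COL1A2 above DCN in 10 of 16. The steps further down were clearer, with DCN above COL3A1 in 14 pigs, COL3A1 above LUM in 15, LUM above SLC6A13 in 12 and SLC6A13 above COL6A3 in all 16.

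COL1A2 encodes the second chain of type I collagen, the main tensile fibre of connective tissue. In No NEC pigs its level was 15.5 FPKM in pig 540-14, 23.7 in 228-15, 7.89 in 230-15, 10.4 in 253-15 and 11.4 in 550-14. In Co-NEC pigs it was 13.1 in 225-15, 13.3 in 545-14, 12.6 in 552-14, 15.5 in 255-15 and 14.4 in 231-15. The Si-NEC pigs ran from 7.41 through a median of 12.3 to 13.9 FPKM. The Co-NEC pigs lay close together, with an SD of 1.18 FPKM, whereas the No NEC pigs covered nearly the whole range of the 16 pigs. The Si-NEC pigs overlapped both.

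COL3A1, the gene of the type III collagen that is laid down together with type I in soft tissue and vessel walls, spread further. Its level in No NEC pigs was 9.84 FPKM in 540-14, 15.5 in 228-15, 2.16 in 230-15, 6.89 in 253-15 and 5.21 in 550-14. The Co-NEC pigs ran from 5.70 to 8.58 FPKM with a median of 7.96, and the Si-NEC pigs from 3.78 to 9.76 with a median of 6.90. Both the highest and the lowest pig of all 16 were therefore No NEC pigs, 7.21-fold apart. COL6A3, a chain of the microfibrillar type VI collagen, ran from 0.224 FPKM in pig 230-15 to 0.693 in 228-15, which are again No NEC pigs.

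DCN encodes decorin, a proteoglycan that coats collagen fibrils and binds growth factors. Its level in No NEC pigs was 17.1 FPKM in 540-14, 22.8 in 228-15, 11.6 in 230-15, 7.32 in 253-15 and 10.7 in 550-14. Co-NEC pigs had 13.2 in 225-15, 11.2 in 545-14, 6.52 in 552-14, 12.99 in 255-15 and 15.8 in 231-15. Si-NEC pigs ran from 6.27 to 16.5 FPKM with a median of 8.36. Of the 6 Si-NEC pigs, 1 lay below every No NEC pig and the others lay within their range. LUM, the gene of lumican, a proteoglycan of the same family that spaces collagen fibrils, lies next to DCN in the RefSeq table of assembly Sscrofa11.1, with 0 annotated genes starting between them. It ran from 1.91 to 5.71 FPKM (median 2.59) in No NEC, 1.80 to 4.17 (median 2.69) in Co-NEC and 1.56 to 3.92 (median 3.05) in Si-NEC pigs.

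FN1 encodes fibronectin, a matrix glycoprotein that integrins bind and that endothelial cells and glia also make. Its level in No NEC pigs was 11.02 FPKM in 540-14, 33.0 in 228-15, 3.04 in 230-15, 11.96 in 253-15 and 12.9 in 550-14. The Co-NEC pigs ran from 10.02 to 15.8 FPKM with a median of 12.1. The Si-NEC pigs ran from 10.19 to 23.5 FPKM with a median of 11.7, and all but 1 of them, pig 224-15, were at or under 13.3. FN1 thus had the widest range among the 7 genes, 10.8-fold, set by the same pair of No NEC pigs as that of COL3A1. SLC6A13, a transporter of GABA and taurine found in leptomeninges, ran from 1.504 to 4.68 FPKM (median 2.21) in No NEC, 1.73 to 3.03 (median 2.17) in Co-NEC and 1.88 to 4.06 (median 2.51) in Si-NEC pigs.

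**Figure D1:**
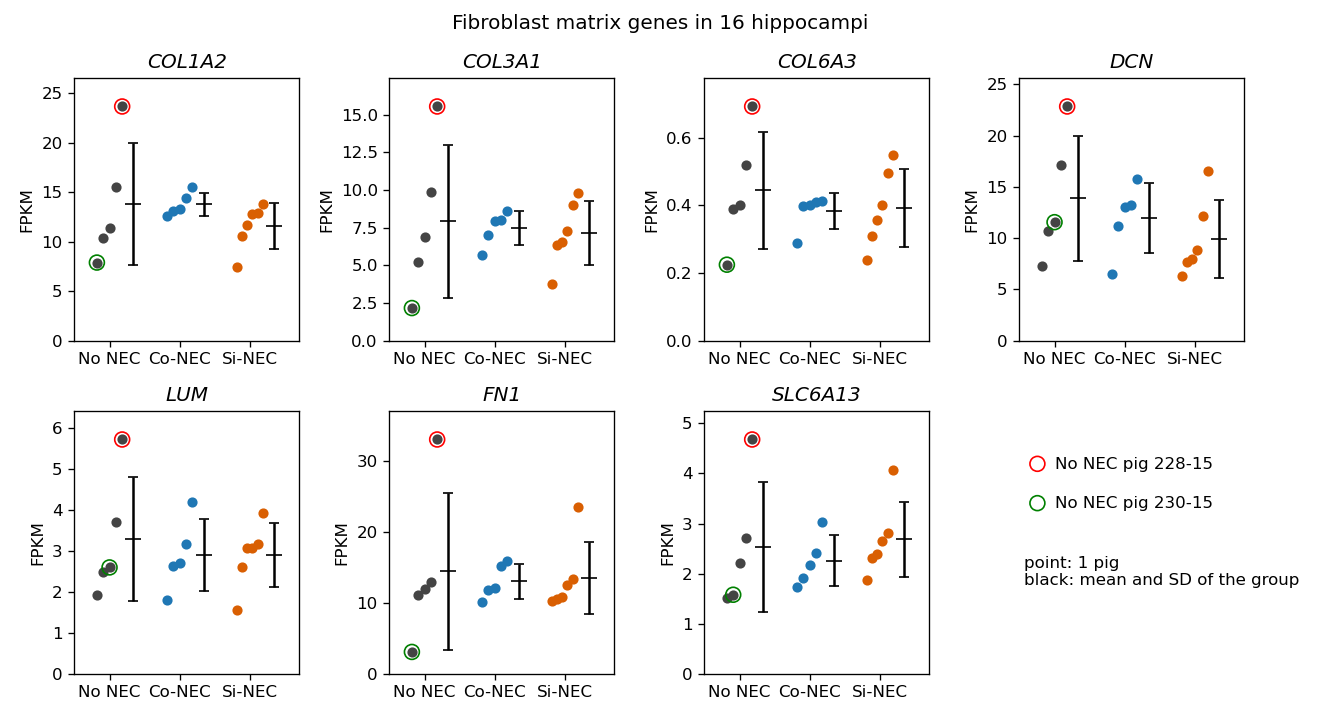
FPKM (vertical axes, linear, from 0) of the 7 genes in No NEC (n = 5), Co-NEC (n = 5) and Si-NEC (n = 6) pigs, 1 point per pig, with the mean and SD of each group in black. The red ring marks No NEC pig 228-15, highest in all 7 panels, and the green ring No NEC pig 230-15, lowest of the 16 pigs for COL3A1, COL6A3 and FN1.

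No NEC pig 228-15, a female, held the highest value of all 16 pigs in each of the 7 genes, at a median of 1.99 times the median pig. Over all tested entries, that pig held the highest value in 2.74%. At the other end, No NEC pig 230-15, a male, was lowest in COL3A1, FN1 and COL6A3, with a median of 0.613 times the median pig, but its DCN was 11.6 FPKM against a median of 11.4 over the 16 pigs. Of the 6 tested genes 2 were lowest in pig 230-15, against 19.9% of all tested entries, so that count is not particular to these genes. Si-NEC pig 539-14 was lowest for COL1A2 and LUM, 226-15 for DCN and No NEC pig 253-15 for SLC6A13. All 7 genes had their largest SD, on the log2(FPKM + 0.5) scale, in the No NEC group, as did 57.6% of the tested entries. For FN1 that SD was 1.15 in No NEC, 0.262 in Co-NEC and 0.438 in Si-NEC pigs.

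Measured against other entries, most of these genes varied widely between pigs. The SD of log2(FPKM + 0.5) over the 16 pigs was larger than that of 93.2% of the tested entries for FN1, 90.4% for COL3A1, 87.8% for DCN, 76.7% for LUM, 72.5% for SLC6A13 and 72.4% for COL1A2. For COL6A3, whose values lie near the offset, it was larger than that of 16.1%.

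**Figure D2:**
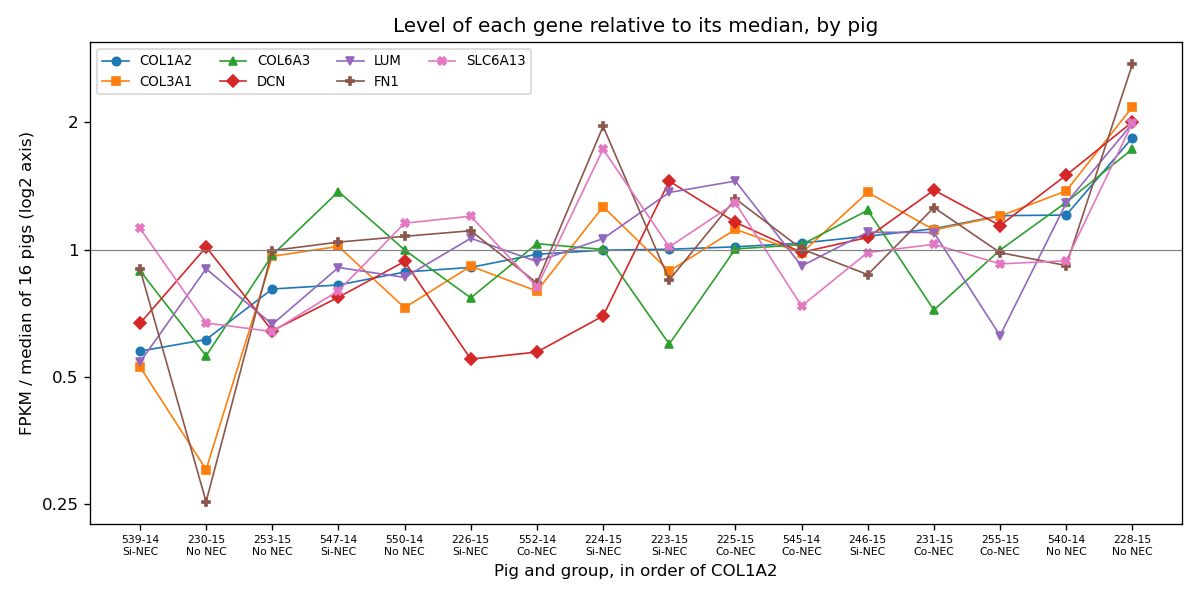
FPKM of each gene divided by its median over 16 pigs (vertical axis, log2 scale) for each pig, ordered from left to right by COL1A2. All 7 lines end high in No NEC pig 228-15. FN1 and COL3A1 drop in No NEC pig 230-15, and FN1 and SLC6A13 rise above the other genes in Si-NEC pig 224-15.

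Whether the genes moved together over the 16 pigs was tested for the 15 pairs of the 6 tested genes, with Benjamini-Hochberg adjustment over the 15. All 15 Pearson correlations were above 0, from 0.202 to 0.889 with a median of 0.560, and 9 passed an adjusted permutation p of 0.05. By Spearman's rho, 5 passed. The points of each correlation share a library, so a pig that stands apart moves both axes.

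The fibrillar collagens formed the closest pair. COL1A2 and COL3A1 had a Pearson r of 0.889 (permutation p = 2e-05, 0.0003 after adjustment) and a Spearman rho of 0.818 (permutation p = 0.00025, 0.00375 after adjustment). With the 2 pigs most distant in COL1A2 left out, r was 0.840 (adjusted permutation p = 0.0138), and without pig 228-15 alone it was 0.851 (adjusted permutation p = 0.00285). The ratio of the 2 levels ran from 1.42 to 2.203 in 15 pigs and was 3.66 in pig 230-15.

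FN1 and SLC6A13 had a Pearson r of 0.770 (permutation p = 0.0004, 0.003 after adjustment) and a Spearman rho of 0.659 (permutation p = 0.00661, 0.033 after adjustment). With the 2 pigs most distant in FN1 left out, r was 0.692 and the adjusted permutation p was 0.0618 with 14 pigs. The 2 proteoglycans DCN and LUM had a Pearson r of 0.639 (permutation p = 0.00705, 0.0176 after adjustment) and a Spearman rho of 0.603 (permutation p = 0.0148, 0.0445 after adjustment), and r fell to 0.586 (adjusted permutation p = 0.139) with the 2 pigs most distant in DCN left out. Within a pig, DCN stood at 2.05 to 7.22 times LUM, with a median of 4.11.

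COL3A1 and FN1 had a Pearson r of 0.821 (permutation p = 0.00089, 0.00445 after adjustment), but a Spearman rho of 0.488 (permutation p = 0.0582, 0.097 after adjustment). With the 2 pigs most distant in COL3A1 left out, r fell to 0.317 (adjusted permutation p = 0.394), so this relation rests on pigs 228-15 and 230-15. The loosest pair was DCN with FN1, with a Pearson r of 0.202 (permutation p = 0.468, 0.468 after adjustment), a Spearman rho of 0.115 (permutation p = 0.676, 0.676 after adjustment) and an r of -0.089 with the 2 pigs most distant in DCN left out. COL6A3, taken in beside the 15 pairs, had its highest r with COL3A1, at 0.713 (permutation p = 0.0025, 0.0131 after adjustment over 21 pairs), with a rho of 0.632 (permutation p = 0.0097, 0.0407 after adjustment).

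Most of the pairs that passed did so only with 1 pig included. Without No NEC pig 228-15, 1 of the 15 Pearson pairs passed, COL1A2 with COL3A1 (r = 0.851), and 2 Spearman pairs did. The median r went from 0.560 to 0.376, r stayed above 0 in 13 of the 15 pairs, and it was below 0 for DCN with FN1 (-0.120) and DCN with SLC6A13 (-0.023). Leaving out each of the other 15 pigs in turn left 7 to 11 pairs passing. With the group means removed 11 pairs passed. Among the 10 pigs whose number ends in 15, 6 pairs passed, and among the 6 whose number ends in 14, 0 passed, with r from -0.546 to 0.955. The suffix is part of the pig's name in the labels, which do not say what it stands for. COL1A2 with COL3A1 had r = 0.902 (adjusted permutation p = 0.0192) in the former and r = 0.858 (adjusted exact permutation p = 0.167) in the latter.

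**Figure D3:**
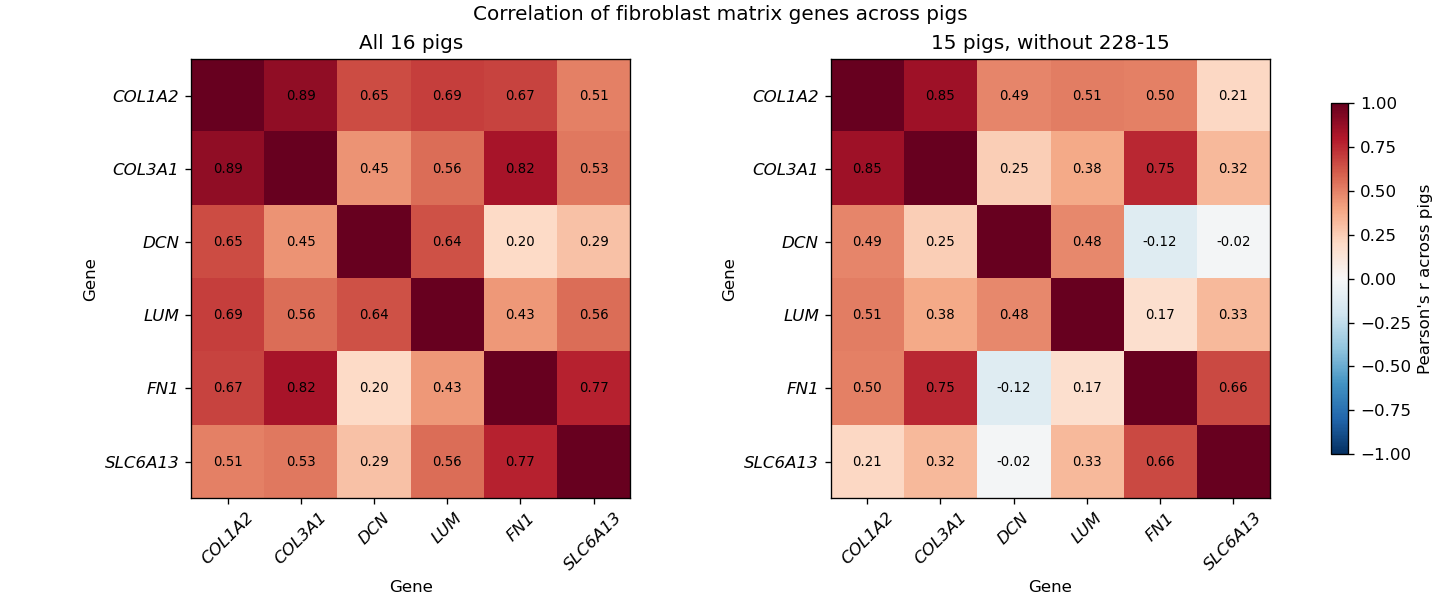
Pearson's r of log2(FPKM + 0.5) between the 6 tested genes over all 16 pigs (left) and over 15 pigs without No NEC pig 228-15 (right), on a colour scale from -1 to 1. COL1A2 with COL3A1 is 0.89 on the left and 0.85 on the right, while DCN with FN1 passes from 0.20 to -0.12.

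Markers of other cell types in a dissected hippocampus were read beside COL1A2, the first of the collagens found, through the mean log2 level of each of 15 lists, with adjustment over the 15. COL1A2 moved with the markers of meningeal and perivascular fibroblast identity, whose 10 tested genes are transcription factors, receptors, retinoid proteins, organic anion transporters and ISLR (Pearson r 0.861, permutation p = 5e-05, 0.00075 after adjustment, and Spearman rho 0.741, permutation p = 0.00151, 0.0226 after adjustment). The relation was r = 0.765 (adjusted permutation p = 0.0283) with the 2 pigs most distant in COL1A2 left out and r = 0.791 (adjusted permutation p = 0.00585) without pig 228-15. Within number suffix 15 it was r = 0.859 (adjusted permutation p = 0.0454), and within suffix 14 r = 0.852 (adjusted exact permutation p = 0.292, n = 6).

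The list of other fibroblast matrix genes had a Pearson r of 0.687 with COL1A2 (permutation p = 0.00323, 0.0242 after adjustment) and a Spearman rho of 0.562 (permutation p = 0.0259, 0.0972 after adjustment), but r = 0.533 (adjusted permutation p = 0.202) without pig 228-15 and r = 0.307 (adjusted permutation p = 0.486) with the 2 most distant pigs left out. Within number suffix 15 r was 0.634 and within suffix 14 it was 0.739, with adjusted permutation p of 0.31 and 0.309. No other list passed. The endothelial list came nearest (Pearson r 0.653, permutation p = 0.0112, 0.056 after adjustment, Spearman rho 0.624, permutation p = 0.012, 0.0599 after adjustment, and an r of 0.666 with the 2 most distant pigs left out).

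**Figure D4:**
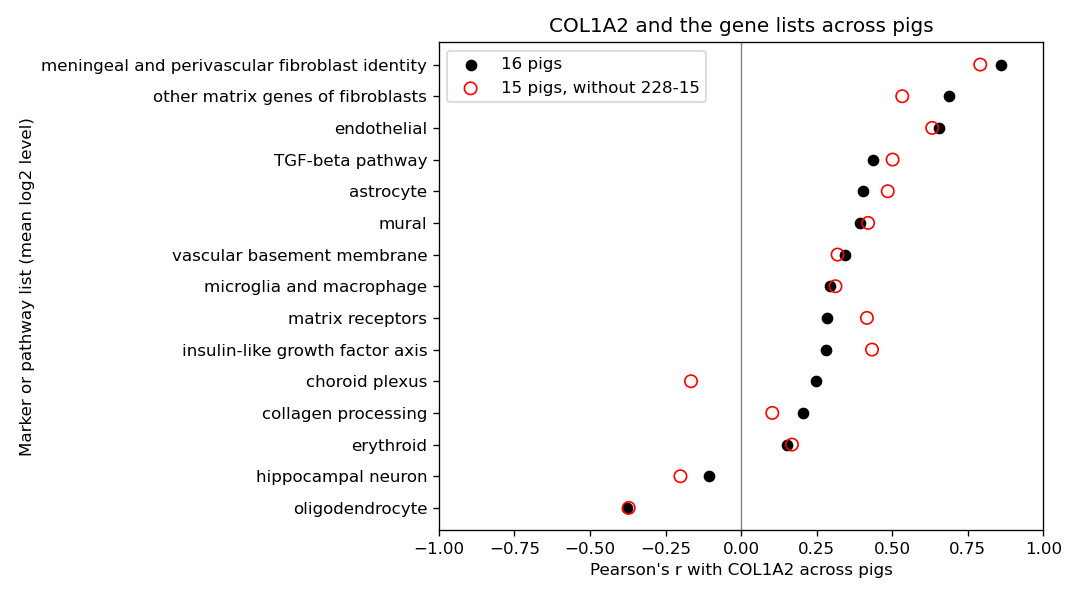
Pearson's r of COL1A2 with the mean log2(FPKM + 0.5) of each of 15 lists over 16 pigs (black) and over 15 pigs without No NEC pig 228-15 (red rings). The fibroblast identity list is at the top in both, at 0.861 and 0.791, and the choroid plexus list passes from 0.246 to -0.166.

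The pig with the highest matrix genes also held the highest level of many fibroblast identity markers. Of the 13 identity markers found above 0, 8 were highest in No NEC pig 228-15. Of the 10 tested ones 5 were, against 2.74% of all tested entries. ALDH1A2, SLC22A2 and DPP4, also highest there, lay under the minimum mean. SLC22A8, with a mean of 0.551 FPKM, passed the minimum only with this pig included. The following genes were chosen after their values were seen. CRABP2, a carrier of retinoic acid, was 5.53 FPKM in this pig, at most 2.09 in the other 15 and listed at 0 in 2. FOXC2, a forkhead factor of the mesenchyme, was 2.43 against at most 1.27, ISLR 7.81 against at most 6.92, the organic anion transporter SLC22A8 1.402 against at most 1.27, and the T-box factor TBX18 1.31 against at most 1.29. The lead was large for CRABP2 and FOXC2 and small for the other 3.

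PDGFRA, an identity marker that oligodendrocyte precursors also express, did not share this and was 16.6 FPKM in pig 228-15 and reached 20.6 elsewhere. The summed identity list of pig 228-15, 71.5 FPKM, was the third highest of the 16. CDH1, an epithelial cadherin also made by meningeal cells, was listed at 0 in all pigs. The table lists IGF1R, PLOD3, COL6A1, MYH11 and the astrocyte gene ALDH1L1 at 0 as well, so a 0 may be a gene that was not quantified. Of 17 tested genes among the other matrix genes, 3 were highest in pig 228-15, COL12A1, COL14A1 and FBLN1, which was 9.94 FPKM there and at most 7.30 in the other pigs. BGN, the gene of the proteoglycan biglycan and the most abundant of that list, was highest in pig 230-15 at 222 FPKM, where the collagens were low, and had r = -0.044 with COL1A2.

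Some markers of neighbouring tissue were high in pig 228-15 as well. Its summed choroid plexus markers, 39.9 FPKM, were the highest of the 16 pigs, against ranges of 16.3 to 39.9 in No NEC, 9.18 to 22.6 in Co-NEC and 15.8 to 37.1 FPKM in Si-NEC pigs. Of the 6 choroid plexus genes found above 0, 2 were highest there, SLC4A5 and CLIC6. CLIC6 lay under the minimum mean, at 0.331 FPKM in this pig. Of the 3 tested ones 1 was highest there, against 2.74% of all tested entries. TTR, the defining product of choroid plexus epithelium, was 23.0 FPKM there, the third highest of the 16, and listed at 0 in 1 pig. Its summed endothelial markers, 41.6 FPKM, were the third highest of the 16. Pig 230-15, with low collagens, had a choroid plexus sum of 29.6 FPKM, the third highest. Its TTR was 23.4 FPKM, above that of pig 228-15, while SLC4A5 and F5 were at their lowest there. In pig 230-15 the summed endothelial markers (16.6 FPKM), basement membrane genes (50.4 FPKM) and collagen processing genes (923.8 FPKM) were the lowest of the 16 pigs. At the level of single genes, 7 of 9 basement membrane genes but 2 of 13 collagen processing genes were at their lowest there, against 19.9% of all tested entries. SPARC alone made up 810.6 FPKM of the collagen processing sum, and PCOLCE (9.93 FPKM) and BMP1 (8.73 FPKM) were at their highest in that pig, 2 genes named after their values were seen. The part of meningeal, vascular or choroid plexus tissue in these differences was not tested.

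The question of the study design is whether these genes differed with gut lesions. Between Si-NEC and No NEC pigs, 0 of the 6 tested genes were called by limma at an adjusted p under 0.2, where 0.00736% of all tested entries were called, and 0 had an unadjusted p under 0.05, against 2.61% of all entries. DCN had the lowest p, with 9.89 ± 3.81 FPKM in Si-NEC (SD, n = 6) and 13.9 ± 6.11 in the No NEC group (n = 5), and its log2 fold change was -0.44 (SE 0.298, exact permutation p = 0.212, limma adjusted p = 1). On the log2 scale that difference was smaller than the SD of either group, 0.487 in Si-NEC and 0.610 in No NEC pigs. COL1A2 had a log2 fold change of -0.17 (SE 0.252, exact permutation p = 0.567), COL3A1 0.04 (SE 0.394, exact permutation p = 0.939) and FN1 0.18 (SE 0.448, exact permutation p = 0.788). The median over the 6 was -0.035, and over all tested entries it was 0.015. The 95% intervals of the ratio ran from 0.47 to 1.16 for DCN and from 0.576 to 2.23 for FN1, so both a lower and a higher level in Si-NEC pigs lie within them. Groups that do not overlap were found in 0.155% of all entries and in none of the 6 genes.

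Between Co-NEC and No NEC pigs, 0 of 6 were called by limma, against 0.00736% of all entries, and 0 had an unadjusted p under 0.05, against 3.44%. The log2 fold changes were between -0.16 for DCN and 0.17 for FN1, with exact permutation p of 0.659 and 0.683. COL1A2 averaged 13.8 ± 1.18 FPKM in Co-NEC and 13.8 ± 6.19 in the No NEC group (SD, n = 5 each), a log2 fold change of 0.095 (SE 0.241, exact permutation p = 0.73). In every one of the 6 genes the groups overlapped, as in all but 0.464% of the entries. The median over the 6 genes was 0.014, and over all entries 0.011.

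Between Si-NEC and Co-NEC pigs, 0 of 6 were called by limma, against 0.0147% of all entries, and 0 had an unadjusted p under 0.05, against 5.64%. COL1A2 came nearest, with 11.6 ± 2.32 FPKM in Si-NEC pigs (SD, n = 6) and 13.8 ± 1.18 in Co-NEC pigs (n = 5), a log2 fold change of -0.27 (SE 0.143, 95% interval -0.58 to 0.045, exact permutation p = 0.0801, limma adjusted p = 0.867). Of the 6 Si-NEC pigs, 3 lay below every Co-NEC pig, and the other 3 overlapped them. DCN had a log2 fold change of -0.28 (exact permutation p = 0.342), SLC6A13 0.20 (exact permutation p = 0.303) and COL3A1 -0.10 (exact permutation p = 0.697). FN1 and LUM were at 0.009 and 0.002, with exact permutation p of 0.985 and 0.998. The median over the 6 genes was -0.050, and over all entries 0.000. The groups did not overlap in 0.545% of all entries and in none of the 6. COL6A3, outside the tested entries, had log2 fold changes of -0.07, -0.08 and 0.007 in the 3 comparisons, in the order given here (exact permutation p = 0.595, 0.532 and 0.959). The smallest p that the exact test can give is 0.00216 with 6 against 5 pigs and 0.00794 with 5 against 5. The 3 comparisons share pigs, 5 in each of the No NEC and Co-NEC groups and 6 in the Si-NEC group, so they are not independent of each other.

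**Figure D5:**
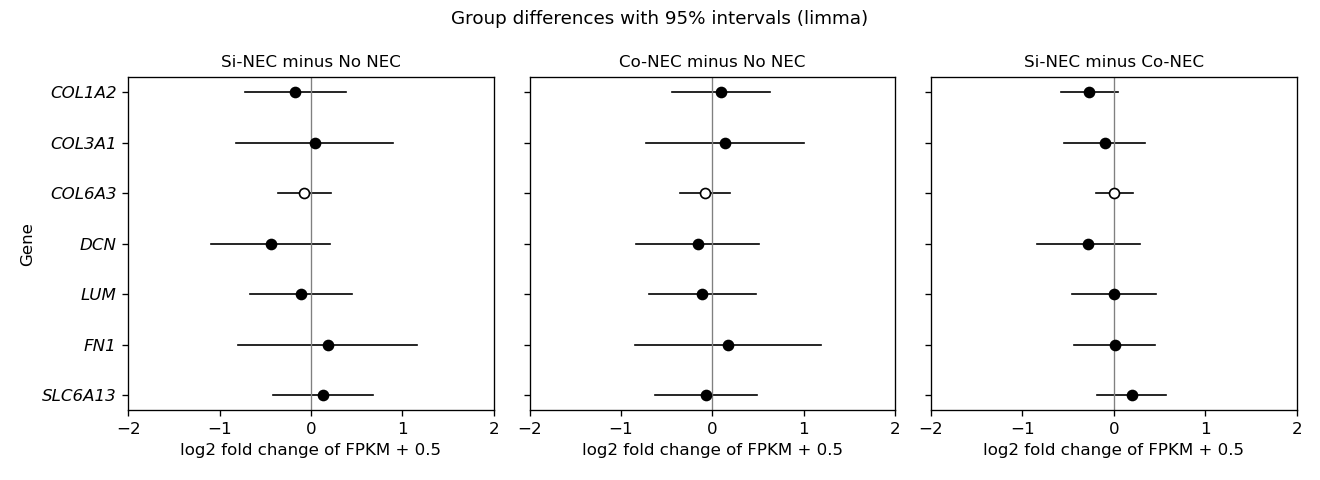
Log2 fold change of FPKM + 0.5 (horizontal axes) of each gene between the groups named above each panel, from limma, with 95% intervals as lines. All 21 intervals cover 0. COL6A3, drawn open, is under the minimum mean and was fitted without the filter.

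Several signs in the No NEC comparisons turned without the 2 extreme pigs. Without pigs 228-15 and 230-15, the log2 fold change of COL3A1 between Si-NEC and No NEC pigs was -0.05 and that of LUM 0.09, and between Co-NEC and No NEC pigs DCN, LUM and SLC6A13 stood at 0.05, 0.09 and 0.07. Again 0 of 6 genes were called by limma in either comparison. The signs of the genes that turned can therefore not be read as directions. DCN and SLC6A13 kept their sign between Si-NEC and No NEC pigs with each pig left out in turn, from -0.634 to -0.24 and from 0.003 to 0.346, without being called.

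By sex, with group in the limma fit, all 6 genes had lower estimates in the 9 male than in the 7 female pigs, and 0 were called at an adjusted p under 0.2, against 0.0515% of all entries. COL3A1 was 6.17 ± 2.29 FPKM in males and 9.16 ± 3.05 in females, a log2 difference of -0.59 (SE 0.255, limma adjusted p = 1). COL1A2 was 11.5 ± 2.597 in males and 14.8 ± 4.23 in females, a log2 difference of -0.37 (SE 0.163, limma adjusted p = 1). These 2 had an unadjusted p under 0.05, as did 3.25% of all entries. Pig 228-15 is female and 230-15 male. Without them the differences were -0.31 and -0.19, and those of LUM and SLC6A13 were 0.02 and 0.001. No sex interaction was called by limma in the 6 genes, and among all entries 0%, 0.00736% and 0.00736% were called in the Si-NEC and No NEC, Co-NEC and No NEC, and Si-NEC and Co-NEC comparisons.

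The genes around them in the matrix pathway were read from lists of known function. In each of the 16 lists, 0 genes were called by limma in any of the 3 group comparisons. Among the 17 tested other matrix genes, 0 had an unadjusted p under 0.05. The most abundant were BGN, at a mean of 120.7 FPKM, and TNC, tenascin-C, a glycoprotein that astrocytes also make, at 20.1 FPKM. TNC was 16.8 ± 9.41 in Si-NEC and 24.5 ± 6.00 in the No NEC group, with a log2 fold change of -0.68 (SE 0.347, limma adjusted p = 1).

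Among the 13 tested genes that fold, cross-link, trim and release collagen, TIMP1, P4HA2, PCOLCE and PLOD1 had an unadjusted p under 0.05 in 1 comparison each. That is 1 of 13 between Si-NEC and No NEC, 1 of 13 between Co-NEC and No NEC and 2 of 13 between Si-NEC and Co-NEC pigs, against 2.61%, 3.44% and 5.64% of all entries. TIMP1, an inhibitor of matrix metalloproteinases, was 14.9 ± 5.24 FPKM in Si-NEC (SD, n = 6) and 8.79 ± 2.06 in Co-NEC pigs (n = 5), a log2 fold change of 0.68 (SE 0.230, limma adjusted p = 0.851). P4HA2, a prolyl hydroxylase of collagen chains, was 5.63 ± 3.07 in Si-NEC and 3.01 ± 1.24 in No NEC pigs (log2 fold change 0.75, SE 0.323, limma adjusted p = 1). PCOLCE, which speeds the trimming of procollagen, was 5.41 ± 1.28 in Co-NEC and 7.97 ± 1.90 in No NEC pigs (log2 fold change -0.52, SE 0.202, limma adjusted p = 0.812). PLOD1, a lysyl hydroxylase, was 22.0 ± 3.21 FPKM in the Si-NEC and 18.4 ± 2.12 in the Co-NEC group (log2 fold change 0.25, SE 0.112, limma adjusted p = 0.867). None of the 4 passed adjustment. The vascular markers with an unadjusted p under 0.05 between Si-NEC and Co-NEC pigs stood on the same side as TIMP1 and PLOD1. PECAM1, an endothelial adhesion protein, had a log2 fold change of 0.48 (SE 0.179, limma adjusted p = 0.858). The endothelial receptor ENG had 0.43 (SE 0.170, limma adjusted p = 0.864), and DES, the desmin gene of mural cells, 0.43 (SE 0.188, limma adjusted p = 0.867). For ENG all 6 Si-NEC pigs lay above every Co-NEC pig, and the groups of this comparison did not overlap in 0.545% of all entries. FLT1, another endothelial gene, stood on the other side, at -0.12 (SE 0.238, limma adjusted p = 0.95). Over the tested genes of each list, the median log2 fold change was 0.083 for endothelial, 0.234 for mural and -0.033 for basement membrane genes. The part of vascular tissue in the TIMP1 and PLOD1 values was not tested. SPARC, a collagen-binding glycoprotein also made by endothelial cells and glia, was far more abundant than any of the 7 genes, at a mean of 1350 FPKM.

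Among the identity markers, ALDH1A1, a retinaldehyde dehydrogenase, had the lowest unadjusted p of all list genes named, under 0.05 in all 3 comparisons. It was 2.78 ± 0.743 FPKM in Si-NEC (SD, n = 6), 7.54 ± 3.04 in Co-NEC (n = 5) and 4.603 ± 1.004 in No NEC pigs (n = 5). All 6 Si-NEC pigs lay below every Co-NEC pig, with a log2 fold change of -1.24 (SE 0.262, limma adjusted p = 0.634). The groups of this comparison did not overlap in 0.545% of all entries. Against No NEC pigs, 5 of the 6 lay below, with a log2 fold change of -0.66 (SE 0.197, limma adjusted p = 1). ALDH1A1 had r = 0.057 with COL1A2 over the 16 pigs. NGFR, PDGFRA and SLC22A6 had an unadjusted p under 0.05 in 1 comparison each. NGFR, the low-affinity neurotrophin receptor, was 1.38 ± 0.829 in Si-NEC and 0.546 ± 0.305 in No NEC pigs (log2 fold change 0.78, SE 0.323, limma adjusted p = 1). SLC22A6, an organic anion transporter, was 5.18 ± 2.01 in Si-NEC and 7.95 ± 1.95 in No NEC pigs (log2 fold change -0.62, SE 0.259, limma adjusted p = 1).

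The entries most like the fibroblast genes over the 16 pigs were ranked by Pearson's r with the mean z-score of the 6 tested genes, as a description. The 10 named entries closest to it were MYO5B (0.895), IDO1 (0.878), C16orf89 (0.850), THSD4 (0.807), DNAJC3 (0.805), ZCCHC2 (0.798), MOXD1 (0.786), WDR48 (0.786), FOXC2 (0.783) and HTRA3 (0.779). Over all 13590 entries the median r was 0.008, and 9 entries (0.0662%), 5 of them outside the list, were above 0.8. Of these 10, 8 had their own highest value in pig 228-15, which also weighs most in the mean z-score that chose them, so nothing is read from that count. IDO1 averaged 0.515 FPKM, just over the minimum, with 3.30 in that pig. Without that pig r was 0.848 for MYO5B, 0.757 for IDO1, 0.637 for FOXC2 and 0.522 for HTRA3. The lowest value of IDO1, of C16orf89 and of FOXC2 was a listed 0, and FOXC2 was the only gene among the 10 that the fibroblast identity list holds.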

How the data were processed

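Hippocampal RNA of 16 pigs was sequenced in the study. The authors trimmed the reads, aligned them to Sscrofa10.2 with TopHat 2.1.1 and estimated FPKM with Cufflinks 2.2.1; the deposited table holds FPKM per gene and pig, and the step that wrote it is not given in the sources used here. Group and sex came from the sample labels. The study tested with Cuffdiff; here, as the table holds FPKM, limma 3.58.1 (R 4.3.3, eBayes with trend) was fitted on log2(FPKM + 0.5) for each pair of groups, with Benjamini-Hochberg adjustment over all tested entries and the study's threshold of 0.2.

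Of 24594 rows, 1779 identical ones were dropped. Symbols came from a table of gene names, which named 11001 of 21956 gene IDs. Of 218 names in the 16 lists, 153 were found. Entries averaging 0.5 FPKM or more were tested. Single genes were compared with two-sided exact permutation tests, and correlations with 100000 two-sided permutations, exact for 6 pigs (Python 3.11.15, scipy 1.17.1). The genes named are the list's members, list genes with an unadjusted p under 0.05 (at most 4 a list) and the 2 most abundant of a list, and the 10 entries most like the members; others are said to be chosen after seeing values. Members and lists were chosen with earlier results of these data known. Fits and correlations were tested on simulated data. Alternatives covered offset, filter, scaling, fit, covariates, variance model, weights, threshold and pigs left out. Leaving out pigs 228-15 and 230-15 was chosen after seeing the data.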

Additional observations from a re-analysis of the deposited data

Results flagged for a closer look

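Within groups of 5 or 6 pigs, 2 values lay far from the others by Dixon's criterion, out of 42 ends in 21 groups tested over the 7 genes, where chance gives about 1 in 20 groups. FN1 was 23.5 FPKM in Si-NEC pig 224-15 and at most 13.3 in the other 5 Si-NEC pigs. The same pig had 4.06 FPKM of SLC6A13, the highest of the Si-NEC group, while its DCN, 7.94 FPKM, was under the median of the 16 pigs. The vascular genes that follow were named after their values were seen. Pig 224-15 was highest of the 16 for the basement membrane genes COL4A2 (39.1 FPKM) and HSPG2 (6.29 FPKM). It was also highest for the endothelial genes FLT1 (15.6 FPKM) and ENG (18.3 FPKM). The endothelial genes PECAM1, KDR and TEK and the other basement membrane genes were highest in other pigs. Over all tested entries, pig 224-15 held the highest value in 4.82%. The part of vascular tissue in the FN1 value was not tested. COL6A3 was 0.288 FPKM in Co-NEC pig 231-15 and at least 0.399 in the other 4 Co-NEC pigs.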

How the results depend on the processing

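No gene of the list was called in a group comparison under any alternative run, and the 52 of 438 fold changes that changed sign were never called. Depth behind single FPKM values is unknown, the groups hold 5 or 6 pigs, and genes near 0.5 FPKM have fold changes reduced by the offset. The cause of the changes below was not tested. For Si-NEC against No NEC, counts of all genes called were 1 as reported, 2 with the number suffix as covariate, 4 with array weights, 2 without pigs 228-15 and 230-15, and 1 to 3 with each pig left out in turn (3 without 540-14). Between Co-NEC and No NEC pigs they were 1 as reported, 4 without the filter, 4 without pigs 228-15 and 230-15, and 1 to 2 with each pig left out (2 without 225-15 or 540-14). Between Si-NEC and Co-NEC pigs they were 2 as reported, 1 with an offset of 0.1, without the filter, with all 3 groups in 1 fit, with sex or the suffix as covariate, at an adjusted p of 0.05 and without pigs 223-15 and 230-15, 201 with array weights, and 1 to 12 with each pig left out (5 without 255-15, 12 without 547-14, and 1 without 225-15, 545-14, 552-14, 223-15, 224-15, 246-15 or 539-14).

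Log2 fold changes that changed sign between Si-NEC and No NEC pigs were those of COL3A1 (-0.0334 with sex, -0.1882 with array weights, -0.2971 without pigs 223-15 and 230-15, -0.0468 without 228-15 and 230-15), FN1 (-0.1227 with array weights, -0.1872 without 223-15 and 230-15) and LUM (0.0876 without 228-15 and 230-15). Between Co-NEC and No NEC pigs, array weights gave COL3A1 -0.1478, FN1 -0.2274 and COL1A2 -0.0716, leaving out 223-15 and 230-15 gave -0.2156, -0.2611 and -0.0725, and leaving out 228-15 and 230-15 gave DCN 0.0545, LUM 0.0856 and SLC6A13 0.0677. Between Si-NEC and Co-NEC pigs, FN1 was -0.0042 with sex and -0.0094 with the suffix, and LUM was -0.0089 with sex, -0.0217 with the suffix, -0.0835 with array weights and -0.082 without 223-15 and 230-15. By sex, LUM was 0.0562 with the suffix and 0.0217 without 228-15 and 230-15, and SLC6A13 0.0014 without those pigs. With each pig left out, the ranges that crossed 0 were, between Si-NEC and No NEC pigs, COL3A1 -0.317 to 0.332, FN1 -0.252 to 0.558, LUM -0.251 to 0.0902 and COL1A2 -0.339 to 0.043, between Co-NEC and No NEC pigs, COL3A1 -0.216 to 0.433, FN1 -0.261 to 0.549, DCN -0.356 to 0.039, LUM -0.253 to 0.088, SLC6A13 -0.194 to 0.148 and COL1A2 -0.072 to 0.309, and, for Si-NEC against Co-NEC, COL3A1 -0.198 to 0.055, FN1 -0.16 to 0.084 and LUM -0.129 to 0.139.

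Of 15 pairs, 9 correlated as reported, 1 without pigs 228-15 and 230-15, 0 within suffix 14, and 1 to 11 with each pig left out, the 1 being without 228-15. Of 15 lists, 2 correlated with COL1A2 as reported, 1 with an offset of 1, 5 with group means removed, 3 without 223-15 and 230-15, 0 within suffix 14, 1 within suffix 15, 1 without 228-15 and 230-15, and 1 to 3 with each pig left out (1 without 228-15 or 539-14, 3 without 224-15). Within suffix 14, r changed sign for SLC6A13 with COL1A2 (-0.489), COL3A1 (-0.546) and LUM (-0.431), and for COL1A2 with the collagen processing (-0.632), basement membrane (-0.322), matrix receptor (-0.024), insulin-like growth factor (-0.023), choroid plexus (-0.218) and mural (-0.062) lists. COL1A2 with the neuron list had r = 0.023 with median-of-ratios scaling and 0.053 within suffix 15, where the microglia list had -0.09 and the erythroid list -0.005. The basement membrane list had -0.012 without 223-15 and 230-15 and -0.165 without 228-15 and 230-15, where the choroid plexus list had -0.18 and DCN with FN1 -0.103. With each pig left out, r crossed 0 for DCN with FN1 (-0.12 to 0.337) and SLC6A13 (-0.023 to 0.462), and for COL1A2 with the choroid plexus (-0.166 to 0.603), basement membrane (-0.007 to 0.417) and erythroid (-0.148 to 0.297) lists.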
